A study of Mus musculus with 12 samples.

Results

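The measurements concern 9 transcription regulators of mouse round spermatids, namely Crem, Fhl5, Gtf2a1l, Taf7l, Taf7, Tbpl1, Tbp, Rfx2 and Sox30. Their symbols were listed with earlier results of these data known, although the rule uses no measured value, and all 9 were found among the 28643 gene symbols of the deposited FPKM table. Male mice of 2 genotypes, Igf2bp3+/- and Igf2bp3-/-, gave their testes at 8 weeks of age, and spermatids were flow-sorted from them with translation held by cycloheximide. Per the paper, Igf2bp3-/- males were chosen for impaired fertility in the experiments that include these libraries. The groups thus differ by this choice as well as by genotype. The mutation was a Cas9 frameshift in an exon for an RNA-binding domain of IGF2BP3, so the Igf2bp3+/- controls kept 1 intact copy and no wild-type mice were included. A portion of each extract gave total input RNA (RNA-seq), and mRNAs on polysomes, with at least 4 ribosomes, gave the libraries termed RNC-seq. There were 3 libraries, described as biological replicates, per genotype and assay, and 12 in total.

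Round spermatids are haploid cells that transcribe the genes for the acrosome, the tail and the compact sperm nucleus before transcription stops. CREM is a bZIP transcription factor that binds cAMP response elements in the promoters of many of these genes, and FHL5 is a testis co-activator of CREM. Spermatids also use germline forms of the basal machinery that recruits RNA polymerase II. GTF2A1L takes the place of GTF2A1 in TFIIA, TAF7L is a relative of the TFIID subunit TAF7, and TBPL1 is a relative of the TATA-binding protein TBP that works with TFIIA. RFX2 and SOX30 are transcription factors needed for the round spermatid programme, including ciliary genes in the case of RFX2.

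The sorted cells, described in the paper as round spermatids of high purity, carried the markers of their label. Transcripts listed as markers of other germ cell stages were also present. The summed FPKM of 5 round spermatid markers was 848 to 941 in Igf2bp3+/- RNA-seq and 1066 to 1224 in Igf2bp3-/- RNA-seq, against 1.40 to 7.83 for 6 Sertoli cell markers across all 12 libraries. Across the same 12 libraries it was 80.3 to 202 for 5 spermatocyte markers and 9092 to 22002 for 7 elongating spermatid markers. The latter include Tnp1, Tnp2, Prm1 and Prm2, whose mRNA the paper measured in sorted round spermatids, so this sum is not a measure of elongating cells. FPKM is a read density per transcript length and library size. The summed level of 7 Leydig cell markers was 15.4 to 22.6 FPKM in Igf2bp3+/- RNA-seq and 48.6 to 55.0 FPKM in Igf2bp3-/- RNA-seq, and in RNC-seq it was 6.75 to 14.3 FPKM and 51.5 to 102.9 FPKM. The Sertoli, peritubular and macrophage marker sums were also higher in every Igf2bp3-/- library than in every Igf2bp3+/- library of the same assay, and no measured marker was at 0 in a whole group. In RNA-seq 3 of 5 tested Sertoli, 2 of 3 peritubular and 6 of 6 macrophage markers had a change above 0, beside 56.2% of all genes. The mean of the Sertoli marker Clu went from 3.12 to 6.69 FPKM in Igf2bp3-/-, but that of Aard from 0.271 to 0.211 FPKM. The peritubular marker Dcn went from 0.871 to 3.88 FPKM, but Myh11 from 0.221 to 0.161 FPKM. Of the 7 Leydig markers, 4 passed as higher in RNA-seq, where 0.256% of all genes passed in either direction, and 1 in RNC-seq, where 0.115% did. Of the tested Sertoli, peritubular and macrophage markers 1 each passed as higher in RNA-seq. The 5 spermatocyte markers and 7 elongating spermatid markers had none past the limit, with median log2 changes of 0.13 and -0.05 in RNA-seq. Igf2bp3 itself was at 33.4 to 38.6 FPKM in Igf2bp3+/- RNA-seq and 31.4 to 32.5 FPKM in Igf2bp3-/- RNA-seq, and a frameshift need not lower a transcript, so this does not check the genotype. Between 21490 and 25633 genes had a value above 0 per library. In bulk libraries fewer cells of a type and less RNA per cell cannot be told apart, and the part of these marker differences in the results on the regulators was not tested.

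The 9 regulators spanned a wide range of RNA levels, as the plot of FPKM by library shows. Over the 6 RNA-seq libraries the mean was 533.7 FPKM for Gtf2a1l, which ranked 76th of 27833 genes with a value above 0, and 407 FPKM for Tbpl1. The CREM pair followed, with Crem at 198 ± 32.8 FPKM (SD, n = 6) and Fhl5 at 192 ± 23.7 FPKM (SD, n = 6). Tbp had a mean of 139 FPKM, Rfx2 of 60.2 FPKM, Sox30 of 15.1 FPKM, Taf7l of 11.3 FPKM and Taf7 of 1.69 FPKM. Neighbours in this order whose library ranges overlapped were Gtf2a1l and Tbpl1, Crem and Fhl5, Fhl5 and Tbp, and Sox30 and Taf7l. The ranges of Tbp and Rfx2, of Rfx2 and Sox30, and of Taf7l and Taf7 were apart.

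**Figure D1:**
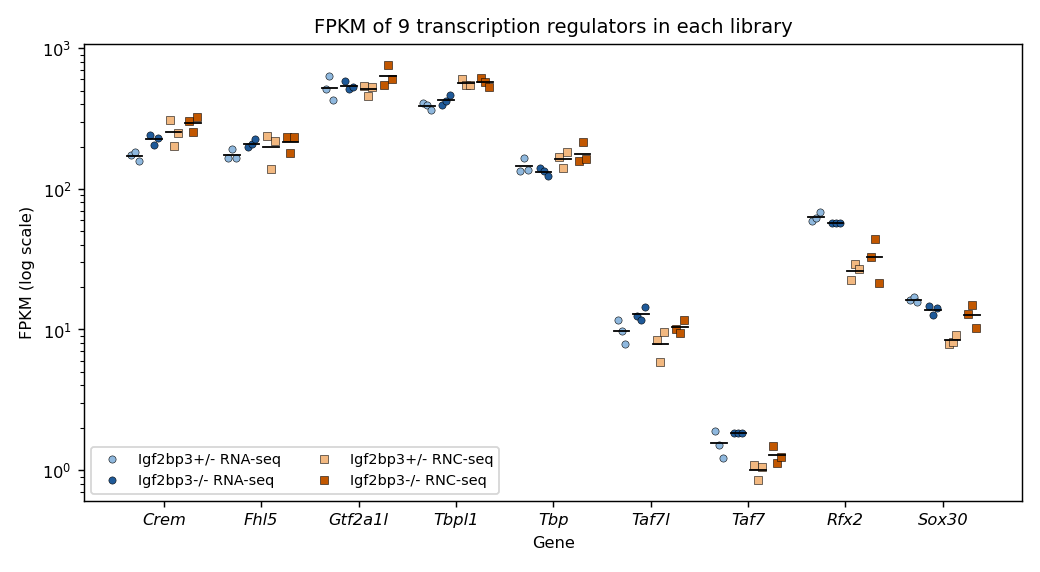
FPKM of each regulator (log axis) in each of the 12 libraries, with circles for RNA-seq, squares for RNC-seq, light colours for Igf2bp3+/-, dark colours for Igf2bp3-/- and a bar for the mean of 3 libraries. Rfx2 and Sox30 lie lower in RNC-seq than in RNA-seq in the Igf2bp3+/- libraries, while Crem and Tbpl1 lie higher.

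Promoters were read for the binding letters of CREM, since its known targets are the genes through which it is best characterised. RefSeq promoter windows of GRCm38.p6, from 250 bases before to 50 bases after each start site, matched 7 of the 9 regulators in 8 windows and 8 of 10 known CREM target genes in 11 windows. The full palindrome TGACGTCA, which reads the same on both strands, was in 0 windows of either set and in 1.79% of all 32851 windows. The looser form TGACNTCA, or TGANGTCA on the other strand, includes the palindrome. It was in 1 of the 8 regulator windows, that of Fhl5, in 5 of the 11 target windows and in 8.83% of all windows. These forms were settled on after several had been tried, and a match of letters is not a bound site. The matches, with 11 bases on either side, are given 5′ to 3′ on the strand of the gene with the matched letters in capitals, for Fhl5 and, as reference, for the transition protein gene Tnp1 and the protamine gene Prm1, which package sperm chromatin.
Fhl5, chr4:25242906-25242935, minus strand, 72 bases before the start: ttgagcttccaTGAAGTCAcacagtgtggc
Tnp1, chr1:73015975-73016004, minus strand, 94 bases before the start: gcaaaggttagTGATGTCAcaagagagctg
Prm1, chr16:10796869-10796898, minus strand, 64 bases before the start: ctggtcctcttTGACTTCAtaattcctagg

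Crem, the DNA-binding activator, was more abundant in the polysome libraries than in total RNA of Igf2bp3+/- spermatids. Its FPKM in Igf2bp3+/- was 174, 181 and 157 in RNA-seq and 309.6, 202 and 249 in RNC-seq, so every RNC-seq library was above every RNA-seq library, a separation by assay in either direction that 55.5% of all genes showed. The log2 difference between RNC-seq and RNA-seq, here called polysome loading, was 0.55 ± 0.16 (SE), or 1.46-fold, and passed the limit of 0.05 (limma adjusted p = 0.0235). This fit, like every loading fit below, takes libraries as separate, although both assays came from shared extracts. The call was lost without RNA-seq replicate 1, RNA-seq replicate 3, RNC-seq replicate 1 or RNC-seq replicate 3 of this genotype (adjusted p = 0.0603, 0.0704, 0.0645 and 0.0610) and with no filter on low values (adjusted p = 0.0786). In Igf2bp3-/- spermatids Crem was at 240.2, 204 and 230.4 FPKM in RNA-seq and at 302, 254 and 323 FPKM in RNC-seq, again without overlap, as in 40.4% of all genes. There the loading of 0.38 ± 0.16 did not pass (adjusted p = 0.129) except without RNC-seq replicate 2 (adjusted p = 0.0274).

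Between the genotypes, all 3 Igf2bp3-/- RNA-seq libraries held more Crem than all 3 Igf2bp3+/- libraries. The log2 change was 0.39 ± 0.10 (SE), or 1.31-fold, with an unadjusted limma p of 0.00301 and an adjusted p of 0.164, where 0.256% of all genes passed. The 2 genotypes did not overlap in RNA-seq in 22.7% of all genes tested, and in 14.1% with the Igf2bp3-/- libraries higher. Of the 5 round spermatid markers, 5 had a change above 0 with a median of 0.32, and none passed the limit. In RNC-seq the genotypes overlapped for Crem (log2 change 0.22 ± 0.21). The difference of differences, which is the change in translational efficiency (TE, RNC-seq over RNA-seq), was -0.17 with a 95% interval from -0.66 to 0.32 (adjusted p = 0.855). Crem lies at chr18:3266048-3337748 on the minus strand of GRCm38 and has 39 annotated transcripts, among them activators and the short ICER repressors, which a value per gene cannot separate. On the opposite strand 8.01% of its exonic bases overlap Gm6225, and the sources do not say if reads were counted by strand.

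Fhl5, the co-activator, had nearly the same RNA level as Crem. Its FPKM in RNA-seq was 164, 193 and 166 in Igf2bp3+/- and 198, 207 and 225 in Igf2bp3-/-, so the genotypes did not overlap, as in 22.7% of all genes. The log2 change of 0.27 ± 0.10 (SE) did not pass (limma adjusted p = 0.248). On polysomes Fhl5 was at 237, 139 and 218 FPKM in Igf2bp3+/- and at 232, 179 and 233 FPKM in Igf2bp3-/-, which overlapped, and replicate 2 was the lowest of each group. Its polysome loading was 0.15 ± 0.20 in Igf2bp3+/- (adjusted p = 0.570) and 0.02 ± 0.17 in Igf2bp3-/- (adjusted p = 0.942). Without Igf2bp3+/- RNC-seq replicate 2 the former was 0.39 and passed (adjusted p = 0.0289). Fhl5 spans chr4:25199908-25242876 on the minus strand, and no other annotated gene overlaps its exons.

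Other partners of CREM and FHL5 were represented by 13 genes, including the related factors Creb1 and Atf1, the kinesin Kif17, FHL family members and co-activators. Of these, 12 were in the table, and 11 were tested in RNA-seq and 10 in RNC-seq, with none past the limit between genotypes. Of all genes, 0.256% passed in RNA-seq and 0.115% in RNC-seq. The median log2 change of the partners was 0.04 in RNA-seq and 0.38 in RNC-seq, where the median of all genes was 0.05 and 0.13. For some partners, Igf2bp3-/- RNC-seq replicate 2 was far above replicates 1 and 3. Replicates 1, 2 and 3 had 0.412, 1.09 and 0.315 FPKM of Ep300 and 85.2, 184.6 and 103 FPKM of Prkaca. This did not hold for Creb1, at 1.90, 1.45 and 1.17 FPKM. The most abundant was Fhl4, a testis FHL protein, at 746 ± 45.9 FPKM in total RNA of Igf2bp3+/- and 742 ± 18.3 FPKM in that of Igf2bp3-/- spermatids (SD, n = 3). The next was Prkaca, the catalytic subunit of protein kinase A that phosphorylates CREM family factors, with 110.1 ± 11.5 FPKM and 122 ± 4.47 FPKM. In contrast to Crem, 7 of the 10 partners tested were lower on polysomes than in total RNA of Igf2bp3+/- spermatids and 0 were higher, where 25.1% of all genes were lower and 18.6% higher. Prkaca was among the 7, with a loading of -0.56 ± 0.12 (adjusted p = 0.00578). In Igf2bp3-/- 3 of the 10 were lower and 0 higher, where 10.9% and 10.1% of all genes were, and the loading of Prkaca was -0.05 ± 0.26 (adjusted p = 0.907).

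Among 10 known CREM targets none passed the limit in any genotype comparison. Of all genes, 0.256% passed in RNA-seq, 0.115% in RNC-seq and 0.00543% in TE. The summed FPKM of the targets in RNA-seq was 12102 to 14846 in Igf2bp3+/- and 13591 to 13964 in Igf2bp3-/-. Their median log2 change was -0.04 in RNA-seq, with 3 of 10 above 0 beside 56.2% of all genes, whose median was 0.05. In RNC-seq it was 0.27, with 8 of 10 above 0 beside 65.3% of all genes, whose median was 0.13. For TE the median was 0.32 with 9 of 10 above 0, where the median of all genes was 0.06 and 55.6% were above 0. Ldhc, the lactate dehydrogenase of sperm, was the most abundant target at 3206 ± 145 FPKM in total RNA of Igf2bp3+/- and 3683 ± 108 FPKM in that of Igf2bp3-/- spermatids (adjusted p = 0.318). Tnp2, a transition protein, was at 2712 ± 162 FPKM and 2938 ± 295 FPKM (adjusted p = 0.635). On polysomes of Igf2bp3+/- spermatids Tnp2 rose over total RNA by 0.42 ± 0.15 (adjusted p = 0.0427), a call lost with no filter (adjusted p = 0.260) and without RNA-seq replicate 1, 2 or 3 or RNC-seq replicate 2 or 3 (adjusted p = 0.0546 to 0.110). Of the 10 targets 3 were higher and 4 lower there, beside 18.6% and 25.1% of all genes, and in Igf2bp3-/- 1 was higher and 0 lower, beside 10.1% and 10.9%. Tnp2 had a loading of 0.75 ± 0.25 in Igf2bp3-/- (adjusted p = 0.0577). It passed there with a filter at a mean of 1, median centring, quantile normalization or library weights (adjusted p = 0.0162 to 0.0353). Without RNC-seq replicate 2 of this genotype it passed too (adjusted p = 0.00986).

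Gtf2a1l, the germline large subunit of TFIIA, was the most abundant regulator. Its FPKM in RNA-seq was 515, 632 and 426 in Igf2bp3+/- and 587, 516 and 526 in Igf2bp3-/-, and the Igf2bp3-/- values lay within the range of the controls. In RNC-seq it was at 538, 454 and 534 FPKM in Igf2bp3+/- and at 547, 763 and 607 FPKM in Igf2bp3-/-, with all Igf2bp3-/- libraries higher. Libraries did not overlap in RNC-seq in 11.3% of all genes. The log2 change was 0.32 ± 0.20 and did not pass (limma adjusted p = 0.820), and that in RNA-seq was 0.07 ± 0.14, a value that turned negative under quantile normalization, with library weights or without Igf2bp3+/- replicate 3. Gtf2a1l lies at chr17:88668660-88715152 on the plus strand.

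Gtf2a1, its widely expressed counterpart, was at 1.84 to 2.59 FPKM in RNA-seq and 1.01 to 1.55 FPKM in RNC-seq. The ratio of Gtf2a1l to Gtf2a1 FPKM ran from 165 to 319 over the 6 RNA-seq libraries and from 293 to 599 over the 6 RNC-seq libraries. Only the lowest RNC-seq ratio, in Igf2bp3+/- replicate 2, fell within the RNA-seq range. The mean log2 ratio was 0.84 higher in RNC-seq, or 1.80-fold (exact two-sided permutation test with assays exchanged within genotype, p = 0.005, the smallest this design gives, adjusted p = 0.03 over 6 ratio tests). The test takes libraries as separate, although input and polysome RNA came from shared extracts whose pairing the labels do not give. With a pseudocount of 1 the difference was 0.59 (adjusted p = 0.06). It also missed the limit (exact permutation test, adjusted p = 0.06) without Igf2bp3+/- RNA-seq replicate 1, 2 or 3, Igf2bp3-/- RNA-seq replicate 3 or Igf2bp3+/- RNC-seq replicate 1, with differences of 0.73 to 0.91. Taken alone in Igf2bp3+/- spermatids, Gtf2a1 was lower on polysomes than in total RNA by -0.82 ± 0.22 (limma adjusted p = 0.0147), a call lost with median centring (adjusted p = 0.0541) and without RNA-seq replicate 2 or 3 (adjusted p = 0.0538 and 0.0583), and Gtf2a1l had a loading of -0.03 ± 0.16. Between genotypes the log2 ratio differed by 0.30 (exact permutation test, adjusted p = 0.27).

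**Figure D2:**
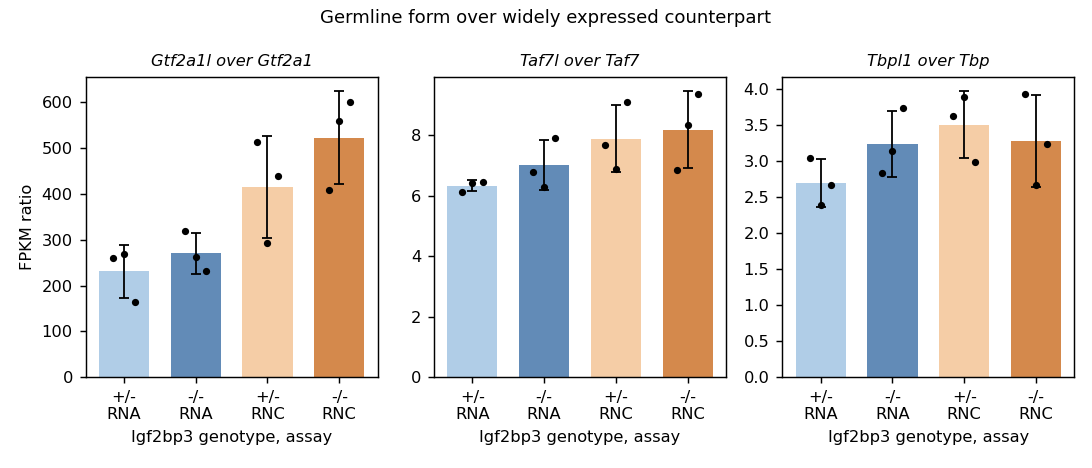
Ratio of the FPKM of each germline form to that of its widely expressed counterpart on linear axes, with bars for the mean of 3 libraries, error bars for the SD and points for the libraries. Gtf2a1l over Gtf2a1 runs from 165 to 319 in RNA-seq and from 293 to 599 in RNC-seq, while the assays overlap widely for Tbpl1 over Tbp.

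Tbpl1, which works with TFIIA at a subset of promoters, was loaded on polysomes above its share of total RNA in Igf2bp3+/- spermatids. Its FPKM in Igf2bp3+/- was 407, 397 and 361 in RNA-seq and 608, 548 and 547 in RNC-seq, without overlap, as in 55.5% of all genes. The loading was 0.55 ± 0.11 (SE), or 1.46-fold, and passed (limma adjusted p = 0.00424), as it did without each of the 6 libraries in turn (adjusted p = 0.0048 to 0.0199). In Igf2bp3-/- it was at 396, 419 and 461 FPKM in RNA-seq and at 614, 570.5 and 529.8 FPKM in RNC-seq, also without overlap, as in 40.4% of all genes. The loading of 0.43 ± 0.16 did not pass there (adjusted p = 0.0802), although it did after median centring, quantile normalization or library weighting (adjusted p as low as 0.0332). It also passed without RNC-seq replicate 2 of this genotype (adjusted p = 0.0492). The genotype changes of Tbpl1 were among the smallest, at 0.13 ± 0.09 in RNA-seq and 0.01 ± 0.18 in RNC-seq, and the TE change was -0.12 with a 95% interval from -0.50 to 0.26. Tbpl1 lies at chr10:22703879-22731938 on the minus strand, with 12.4% of its exonic bases opposite Slc2a12.

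Tbp, the general TATA-binding protein, was itself abundant in these cells. Its FPKM in RNA-seq was 134, 166 and 136 in Igf2bp3+/- and 139.6, 133 and 124 in Igf2bp3-/-. In RNC-seq it was at 168, 141 and 183 FPKM and at 157, 214 and 164 FPKM, and the genotypes overlapped in both assays. The polysome loading of Tbp was 0.17 ± 0.14 (SE) in Igf2bp3+/- (limma adjusted p = 0.359). In Igf2bp3-/- it was 0.42 ± 0.17 (adjusted p = 0.112), beside 0.43 ± 0.16 for Tbpl1. There the assays did not overlap for Tbp, as in 40.4% of all genes. The ratio of Tbpl1 to Tbp FPKM was 2.38 to 3.73 in RNA-seq and 2.66 to 3.92 in RNC-seq, a log2 difference of 0.19 (exact permutation test, adjusted p = 0.27). The log2 change of Tbp was -0.13 ± 0.11 in RNA-seq (limma adjusted p = 0.581) and 0.11 ± 0.21 in RNC-seq (adjusted p = 0.940). Tbp lies at chr17:15499888-15528379 on the plus strand, with 19.0% of its exonic bases opposite Pdcd2.

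Taf7l and Taf7, the paired TFIID subunits, stood at low levels. Taf7l had 11.7, 9.68 and 7.91 FPKM in Igf2bp3+/- and 12.4, 11.6 and 14.5 FPKM in Igf2bp3-/- RNA-seq, which overlapped by 1 library. Its log2 change was 0.40 ± 0.16 in RNA-seq (limma adjusted p = 0.282) and 0.40 ± 0.24 in RNC-seq (adjusted p = 0.815), where it had 8.37, 5.85 and 9.61 FPKM against 10.1, 9.37 and 11.6 FPKM. Taf7 was at 1.23 to 1.91 FPKM in RNA-seq and 0.850 to 1.47 FPKM in RNC-seq. Its 3 Igf2bp3-/- RNC-seq libraries, at 1.47, 1.12 and 1.24 FPKM, were above the 3 Igf2bp3+/- libraries, at 1.09, 0.850 and 1.06 FPKM, with a log2 change of 0.33 ± 0.28 (adjusted p = 0.854). The genotypes did not overlap in RNC-seq in 11.3% of all genes. Taf7l over Taf7 was 6.13 to 7.92 in RNA-seq and 6.84 to 9.35 in RNC-seq, a log2 difference of 0.23 (exact permutation test, p = 0.03, adjusted p = 0.09). Taf7l lies at chrX:134460118-134476490 and Taf7 at chr18:37640491-37644204, both on the minus strand, and no other gene overlaps their exons.

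The remaining general transcription factors were described by 22 genes, of which 19 were tested and none passed the limit between genotypes. Of all genes, 0.256% passed in RNA-seq, 0.115% in RNC-seq and 0.00543% in TE. The median log2 change of the 19 was 0.13 in RNA-seq and 0.24 in RNC-seq, where that of all genes was 0.05 and 0.13. Taf9, a TFIID subunit, was the most abundant at 349 ± 30.6 FPKM in total RNA of Igf2bp3+/- and 406 ± 55.0 FPKM in that of Igf2bp3-/- spermatids. Gtf2a2, the small subunit of TFIIA, was at 205 ± 32.8 FPKM and 247 ± 37.2 FPKM. It was higher on polysomes than in total RNA in Igf2bp3+/-, by 1.01 ± 0.17 (adjusted p = 0.00176), and in Igf2bp3-/-, by 0.61 ± 0.18 (adjusted p = 0.0383). The latter call was lost with no filter (adjusted p = 0.0891) and without RNA-seq replicate 1, 2 or 3 or RNC-seq replicate 1 or 3 (adjusted p = 0.0596 to 0.171). Of the 19, 6 were higher and 9 lower on polysomes of Igf2bp3+/- spermatids, beside 18.6% and 25.1% of all genes, and 1 was higher and 2 lower in Igf2bp3-/-, beside 10.1% and 10.9%.

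Rfx2 was the regulator most depleted from polysomes. Its FPKM in Igf2bp3+/- was 59.2, 62.1 and 67.9 in RNA-seq and 22.4, 29.1 and 26.9 in RNC-seq, so all polysome libraries lay below total RNA. A separation by assay in either direction was found in 55.5% of all genes. The loading was -1.27 ± 0.14 (SE), or 0.413 times the level in total RNA (limma adjusted p = 0.000214), and it passed in all 13 alternative fits (adjusted p = 6.66e-05 to 0.00332). In Igf2bp3-/- Rfx2 was at 57.4, 57.5 and 57.1 FPKM in RNA-seq and at 32.7, 43.8 and 21.5 FPKM in RNC-seq, again without overlap, as in 40.4% of all genes. The loading of -0.87 ± 0.24 passed (adjusted p = 0.0316). This call held without RNC-seq replicate 2 (-1.11, adjusted p = 0.00294) but was lost without RNA-seq replicate 1, 2 or 3 or RNC-seq replicate 1 or 3 of this genotype (adjusted p = 0.0581 to 0.101) and with no filter (adjusted p = 0.116).

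Between genotypes the Igf2bp3-/- RNA-seq libraries of Rfx2 were all below the Igf2bp3+/- libraries, by -0.13 ± 0.08 on the log2 scale (adjusted p = 0.470). Such a separation was found in 8.68% of all genes. In RNC-seq the genotypes overlapped, with Igf2bp3-/- replicate 2 the highest library and Igf2bp3-/- replicate 3 the lowest. The TE change was 0.40 with a 95% interval from -0.22 to 1.03 (adjusted p = 0.756), and it was 0.16 without Igf2bp3-/- RNC-seq replicate 2 and 0.68 without replicate 3 of that group. Rfx2 lies at chr17:56775897-56831013 on the minus strand, and no other gene overlaps its exons.

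Sox30 stood apart between the genotypes in both assays, but in opposite directions. In RNA-seq it was at 16.3, 16.9 and 15.6 FPKM in Igf2bp3+/- and at 14.8, 12.6 and 14.2 FPKM in Igf2bp3-/-. In RNC-seq it was at 7.83, 8.19 and 9.09 FPKM in Igf2bp3+/- and at 12.9, 15.0 and 10.3 FPKM in Igf2bp3-/-. All Igf2bp3-/- libraries were thus below the controls in total RNA and above them on polysomes, an arrangement found in 0.739% of 18414 genes. The log2 change was -0.23 ± 0.10 in RNA-seq (limma adjusted p = 0.318) and 0.59 ± 0.22 in RNC-seq (adjusted p = 0.740). The TE change was 0.82 ± 0.22, or 1.76-fold, with a 95% interval from 0.34 to 1.30 and an unadjusted p of 0.00251. It was above that of 92.3% of genes but did not pass over all genes (adjusted p = 0.686), and stayed between 0.69 and 0.96 in all 19 alternative fits (adjusted p = 0.115 to 0.941). Of these, the filter settings and the replicate block cannot move the estimate, only its p-value.

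The same values gave Sox30 a low polysome loading in Igf2bp3+/- of -0.95 ± 0.13 (SE), or 0.517 times total RNA (limma adjusted p = 0.000676), which passed in all 13 alternatives. All 3 RNC-seq libraries lay below all 3 RNA-seq libraries, where 55.5% of all genes were apart by assay in either direction. In Igf2bp3-/- the assays overlapped and the loading was -0.13 ± 0.19 (adjusted p = 0.658). That it passed in 1 genotype and not in the other is no test of a difference, for which the TE value above stands. Sox30 lies at chr11:45980310-46017994 on the plus strand in a stretch with no other annotated exon overlapping it. Leydig and Sertoli marker sums also differed between these groups, and their part in the Sox30 values was not tested.

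A further 15 regulators of spermatid development, among them RFX, SOX and MYB family genes, were all tested, and none passed the limit between genotypes. Of all genes, 0.256% passed in RNA-seq, 0.115% in RNC-seq and 0.00543% in TE. The median log2 change of the 15 was -0.03 in RNA-seq, 0.26 in RNC-seq and 0.26 in TE. That of all genes was 0.05, 0.13 and 0.06. Spz1, a bHLH-Zip factor of the testis, was the most abundant at 404 ± 8.99 FPKM in total RNA of Igf2bp3+/- and 437 ± 48.8 FPKM in that of Igf2bp3-/- spermatids. Sox5, a SOX family factor, was at 123 ± 2.13 FPKM and 154 ± 16.2 FPKM, with a log2 change of 0.32 ± 0.09 (limma adjusted p = 0.201). On polysomes of Igf2bp3+/- spermatids 7 of the 15 were lower than in total RNA and 1, Sox5, was higher, by 0.51 ± 0.10 (adjusted p = 0.00416), where 25.1% of all genes were lower and 18.6% higher. In Igf2bp3-/- 1 of the 15 was lower and 1 higher, where 10.9% and 10.1% of all genes were.

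Over the 9 regulators, 4 changed between total RNA and polysomes in Igf2bp3+/- spermatids (limma adjusted p under the limit), with Crem and Tbpl1 higher and Rfx2 and Sox30 lower, where 43.7% of all genes passed. In Igf2bp3-/- spermatids 1 of 9 passed, Rfx2, where 21% of all genes did. The 2 loadings share no library, but each is relative to its own libraries, whose median loading over all genes was -0.09 and -0.04.

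**Figure D3:**
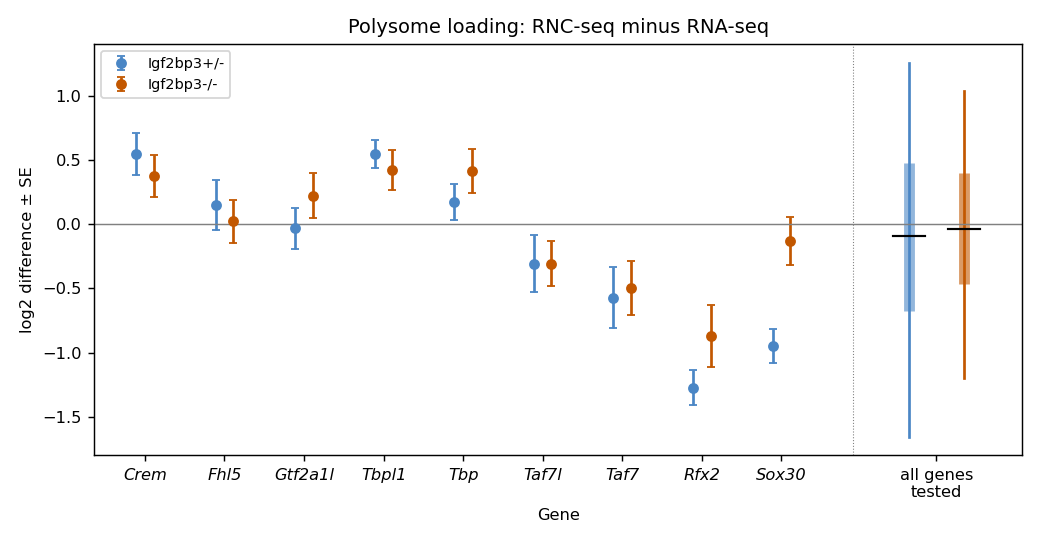
Polysome loading (log2 RNC-seq minus RNA-seq, with SE) of each regulator in Igf2bp3+/- (blue) and Igf2bp3-/- (orange) spermatids, beside all genes tested, drawn as the median (black), the middle 50% (thick) and the 5th to 95th percentile (thin). Rfx2 is lowest in both genotypes, and Sox30 is at -0.95 in Igf2bp3+/- and -0.13 in Igf2bp3-/-.

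None of the 9 regulators passed the limit between genotypes in any assay. In RNA-seq 0 of 9 passed, beside 0.256% of all genes, and 4 of 9 had an unadjusted limma p under 0.05, beside 15.7% of all genes. These were Crem, Fhl5 and Taf7l, with values above 0, and Sox30, with a value below 0. For 4 of the 9, Crem, Fhl5, Rfx2 and Sox30, the genotypes were fully apart, as for 22.7% of all genes. In RNC-seq 0 of 9 passed, beside 0.115% of all genes, with 1 under 0.05 before adjustment, Sox30, beside 6.48% of all genes. The genotypes were fully apart there for Gtf2a1l, Taf7 and Sox30, beside 11.3% of all genes. All 9 had a change above 0 there, as did 65.3% of all genes, and centring each library on its median left 7 of 9 above 0 and moved the median of all genes from 0.13 to 0.01. For TE 0 of 9 passed, beside 0.00543% of all genes, and Sox30 was again the member under 0.05 before adjustment, beside 7.13% of all genes.

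**Figure D4:**
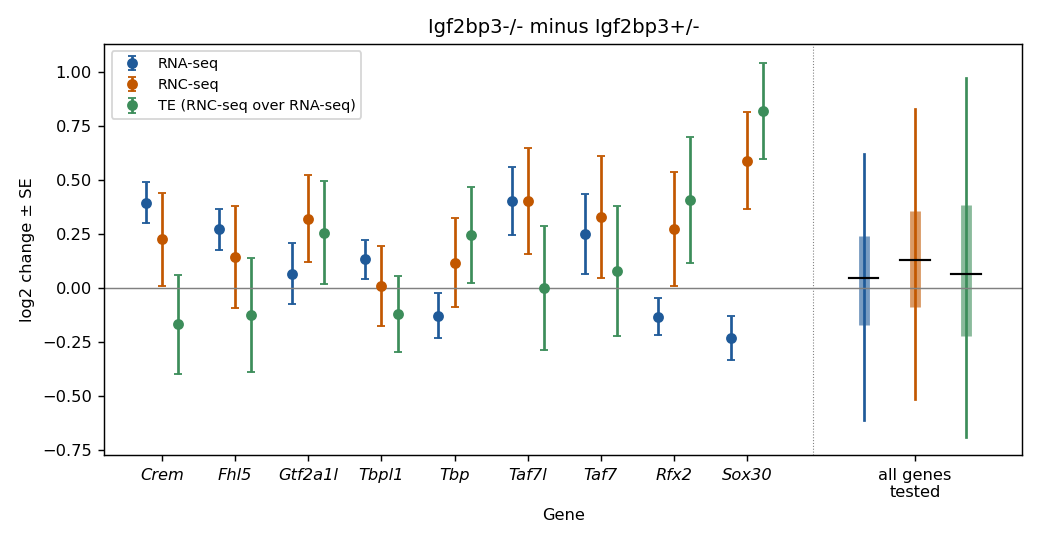
Log2 change (with SE) of each regulator in Igf2bp3-/- against Igf2bp3+/- spermatids in RNA-seq (blue), RNC-seq (orange) and TE (green), beside all genes tested, drawn as the median (black), the middle 50% (thick) and the 5th to 95th percentile (thin). Sox30 is at -0.23 in RNA-seq and 0.59 in RNC-seq, and every value lies within the 5th to 95th percentile of all genes in its comparison.

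Genes with a profile like that of Crem were sought over the 12 libraries, by the root mean square difference of log2 values centred on each gene's mean. The closest of 11380 genes with a mean of at least 1 FPKM in both assays was Got1l1, a relative of cytosolic aspartate aminotransferase, with a difference of 0.0895. It was followed by 1700013M08Rik, Tex26, Ropn1, a sperm tail protein, and 6820408C15Rik, the last with a difference of 0.102, where the median of all genes was 0.429. These genes ran from 20.6 to 477 FPKM in RNA-seq. Among the regulators Tbpl1 was closest to Crem with a difference of 0.196 and Fhl5 next with 0.223, but 593 and 1034 genes were closer to Crem than these, and Rfx2 was farthest with 0.868.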

How the data were processed

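The authors deposited 1 table of FPKM per gene symbol for 12 libraries. Per the labels and methods, reads were trimmed with Trim Galore 0.6.6, aligned with HISAT2 to GRCm38 and quantified by StringTie 2.1.7, and the annotation release is not given in the sources used here. The labels name a directional poly(A) kit on an Illumina instrument and the methods another library method and instrument. Columns named WT are Igf2bp3+/- by the labels. Of 28668 rows, 25 were symbols turned into dates (0.0995% of summed FPKM) and were left out. Positions came from GENCODE M21, which matched 27839 symbols. BLAST 2.17.0 found no transcript of another gene that matched 50% of a regulator's longest transcript at 95% identity.

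Values were analysed here as log2(FPKM + 0.1) with limma 3.58.1 (trend, two-sided, Benjamini-Hochberg over all genes tested, limit 0.05) in R 4.3.3, among genes with a mean FPKM above 0.1 in the assays compared. Fold changes on this scale understate those of low genes. Genotype was tested within each assay, TE as the interaction of genotype and assay, and polysome loading as RNC-seq against RNA-seq within each genotype. The TE and loading fits take libraries as separate, although input and polysome RNA came from shared extracts whose pairing the labels do not give. FPKM are relative to each library, so loading is not an absolute share of molecules. The file gives no counts, so depth is unknown, and a relative depth read from the lowest values was 1 in Igf2bp3-/- RNA-seq replicate 1 and 0.380 to 0.562 in the others. The replicates are described as biological but their animals are not named, and p-values measure the spread between the libraries. Ratios of paralogs were compared with exact permutation tests in Python 3.11.15.

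The regulators and gene lists were chosen with earlier results of these data known. Named genes were the 9 regulators, Gtf2a1, the 2 genes of each list with the highest mean FPKM over all 12 libraries (as none passed between genotypes) and the 5 closest in profile to Crem. Alternatives were a pseudocount of 1, no filter, a filter at a mean of 1, median centring, quantile normalization, a replicate block, library weights and each library left out. On simulated data the RNA-seq fit over 20454 genes found 72% of 100 genes changed by 1 on the log2 scale, and the RNC-seq fit over 19049 genes found 13% of 100. The TE fit found 25% of such genes, and the loading fits 46% in Igf2bp3+/- and 32% in Igf2bp3-/-. The changed genes were drawn from those with a mean log2 value above that of 1 FPKM, so these shares do not cover lower genes.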

Additional observations from a re-analysis of the deposited data

Results flagged for a closer look

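Sox30 was the only one of the 9 regulators whose Igf2bp3-/- libraries all lay on opposite sides of the Igf2bp3+/- libraries in the 2 assays, lower in RNA-seq and higher in RNC-seq. The difference between the assays, tested as the TE change, was 0.82 ± 0.22 (SE) on the log2 scale, with an unadjusted limma p of 0.00251 and an adjusted p of 0.686. The same arrangement held for 136 of 18414 genes, or 0.739%, and the reverse one for 23 genes. Over 19 alternative fits the change stayed between 0.69 and 0.96, although the filter settings and the replicate block among them cannot move it.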

How the results depend on the processing

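No count of regulators past the limit between genotypes moved from 0 in RNA-seq, RNC-seq or TE under any alternative, and the 4 of polysome loading in Igf2bp3+/- moved between 3 and 5. In Igf2bp3-/- the 1 regulator past the limit in polysome loading became 0 with no filter, 2 with median centring, quantile normalization or library weights, and 0 to 3 with a library left out. The difference of Gtf2a1l over Gtf2a1 between assays was 0.59 with a pseudocount of 1 and 0.73 to 0.95 with a library left out (adjusted p = 0.03 or 0.06). Replicate numbers are shared between groups, but the labels do not say that they mark an animal, and the deviations of libraries with 1 number in the 2 assays correlated at -0.10 to 0.26 over 11389 genes, so the numbers were not taken to pair them. With the replicate block, the Gtf2a1l over Gtf2a1 difference was 0.84 (exact permutation test, p = 0.03125, the smallest that sign changes over 6 pairs give, adjusted p = 0.188), the genes past the limit between genotypes in RNA-seq went from 52 to 4, and the counts of regulators past the limit were 0 in the 3 genotype comparisons and 4 and 1 in loading. The Igf2bp3-/- loading call of Gtf2a2 was lost with the block (adjusted p = 0.0589).

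Values close to 0 changed sign. Under quantile normalization the genotype log2 change became -0.087 for Gtf2a1l, -0.030 for Tbpl1 and -0.048 for Spz1 in RNA-seq, -0.10 for Tbpl1, -0.029 for Tbp and 0.040 for Ldhc in RNC-seq, and -0.041 for Taf7 in TE. Under median centring it became -0.11 for Tbpl1 and -0.0045 for Tbp in RNC-seq and -0.054 for Taf7 in TE, and the Igf2bp3+/- loading became 0.13 for Gtf2a1l and 0.055 for Spz1. With library weights Gtf2a1l became -0.055 in RNA-seq. With a library left out, values that changed sign ranged from -0.075 to 0.21 for Gtf2a1l and -0.056 to 0.033 for Fhl4 in RNA-seq, and in RNC-seq from -0.092 to 0.29 for Fhl5, -0.045 to 0.062 for Tbpl1, -0.026 to 0.20 for Tbp, -0.15 to 0.11 for Gtf2a1, -0.19 to 0.075 for Ldhc and -0.24 to 0.020 for Gtf2a2. In TE they ranged from -0.36 to 0.019 for Fhl5, -0.20 to 0.15 for Taf7l and -0.078 to 0.22 for Taf7, and in loading from -0.17 to 0.11 for Gtf2a1l and -0.21 to 0.050 for Spz1 in Igf2bp3+/- and, in Igf2bp3-/-, from -0.043 to 0.15 for Fhl5, -0.38 to 0.18 for Prkaca, -0.032 to 0.42 for Taf9 and -0.26 to 0.010 for Sox30. Counts over all genes moved more than those of the regulators, in RNA-seq from 52 to 13 with no filter, 84 with library weights and 9 to 38 with a library left out, in RNC-seq from 22 to 12 with quantile normalization and 0 to 20 with a library left out, and in Igf2bp3-/- loading from 3880 to 2331 with no filter and 1155 to 6182 with a library left out. The causes were not tested. The file gives no counts, so the effect of depth could not be measured.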
